A study of Mus musculus with 8 samples.

Results

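The genes described here encode the semaphorins with their plexin and neuropilin receptors, the Slit ligands with their Robo receptors, and the netrins with the receptors DCC, neogenin and UNC5. They were measured in the genital tubercle of the embryo, which grows into a penis or a clitoris. A gene was taken when its platform symbol was on a fixed list from these families, and not by its values. The list leaves out members such as Robo3, Ntn3 and Ntn5, and was chosen with earlier results of these data known. Only probe sets annotated to a single gene were used. This gave 107 probe sets of 45 genes, out of 34945 single-gene probe sets of 18194 genes. The tubercle region was microdissected from FVB/N mouse embryos at 14 dpc, and 4 male and 4 female samples, none of them pooled, were each hybridized to 1 Affymetrix MOE430 array. All groups share this strain, stage and dissection, and the labels name no treatment and no engineered allele. The dissected region holds every cell type of the tubercle, so in these bulk samples fewer cells of a type and less RNA per cell cannot be told apart. The labels do not say whether embryos shared a litter, so the p-values reflect only how far these 8 samples spread, and part of that spread may be technical.

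These proteins steer growing axons, and they also guide vessels, migrating cells and epithelial sheets. Secreted class 3 semaphorins bind a neuropilin that pairs with a plexin, whereas membrane-bound semaphorins bind plexins directly. Slits act through Robo receptors, mostly as repellents. Netrins attract through DCC and neogenin and repel through UNC5 receptors, and DCC and UNC5 receptors can also trigger cell death when no netrin is bound.

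Values are linear array intensities, with the same trimmed mean on every array as deposited. The median intensity was not the same. It ran from 184.4 to 206.6 on the female arrays and from 211.72 to 249.35 on the male arrays, without overlap. A difference is the male mean less the female mean of log2(intensity + 16), with the standard error (SE) of a limma fit over the whole array, and group levels are mean intensity ± SD with n = 4 per sex. A probe set was called at a limma adjusted p under 0.05, and was tested when its mean log2 value reached the array median. Levels of different probe sets are not comparable with each other, and the number of arrays limits the precision. The tubercle markers Hoxd13, Isl1, Shh, Wnt5a and Tbx4 were bright in both sexes, with group means from 6871 to 36380. Dlx5 was dimmer, at 3114 ± 388 in females and 1902 ± 792 in males, and Hoxa13 lay below the filter at 145.8 to 252.1. Hoxd13 (-0.29 ± 0.06), Isl1 (-0.33 ± 0.07), Shh (-0.39 ± 0.11) and Dlx5 (-0.78 ± 0.23) were called lower in males, and Wnt5a and Tbx4 did not pass. The Y-linked gene Eif2s3y separated the labels on every array. One male array, replicate 3, read 16036 for Xist, against 230.01 to 620 on the other male arrays and 32465 to 35816 on the female arrays. Its Eif2s3y level of 5571 lay within the 4109 to 6136 of the other male arrays. The array's 18S rRNA control read 8332 to 18926 on the female arrays and 21050 to 33634 on the male arrays, so that its ranges did not overlap and its level cannot be told apart from sex.

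Guidance genes differed between the sexes in both directions. Of 70 tested probe sets, 38 were called (54.3%, beside 40.5% of all tested): 19 (27.1%) were higher in males, where 18.7% of all tested probe sets were, and 19 (27.1%) were higher in females, where 21.9% were. The other 37 of the 107 probe sets lay below the filter. Read on the brightest tested probe set of each gene, 7 of 38 genes were higher in males (18.4%, beside 14% of all genes), 13 were higher in females (34.2%, beside 28.2%) and 18 did not pass. The median difference was -0.0046 over the 70 probe sets and -0.0092 over all tested probe sets. Male and female ranges did not overlap for 30 of the 70 probe sets (42.9%, beside 37.1% of all tested), with males above in 13 (15.8% of all tested) and below in 17 (21.2% of all tested). Without male replicate 3, 15 probe sets were higher in males and 16 in females, where 14.9% and 18.7% of all tested probe sets were (33.5% in all). Without male replicates 1 and 3, the 2 male arrays with the highest 18S level, the counts were 15 and 17, where 14.9% and 20.5% of all were (35.4% in all). With the 18S level as a covariate in limma, 0 of the 70 probe sets passed, beside 1.84% of all tested (1.11% higher in males and 0.724% in females), and 6 were higher in males and 8 in females at an unadjusted p under 0.05. Of all calls on the array, 46.1% were higher in males without the covariate and 60.6% with it.

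**Figure D1:**
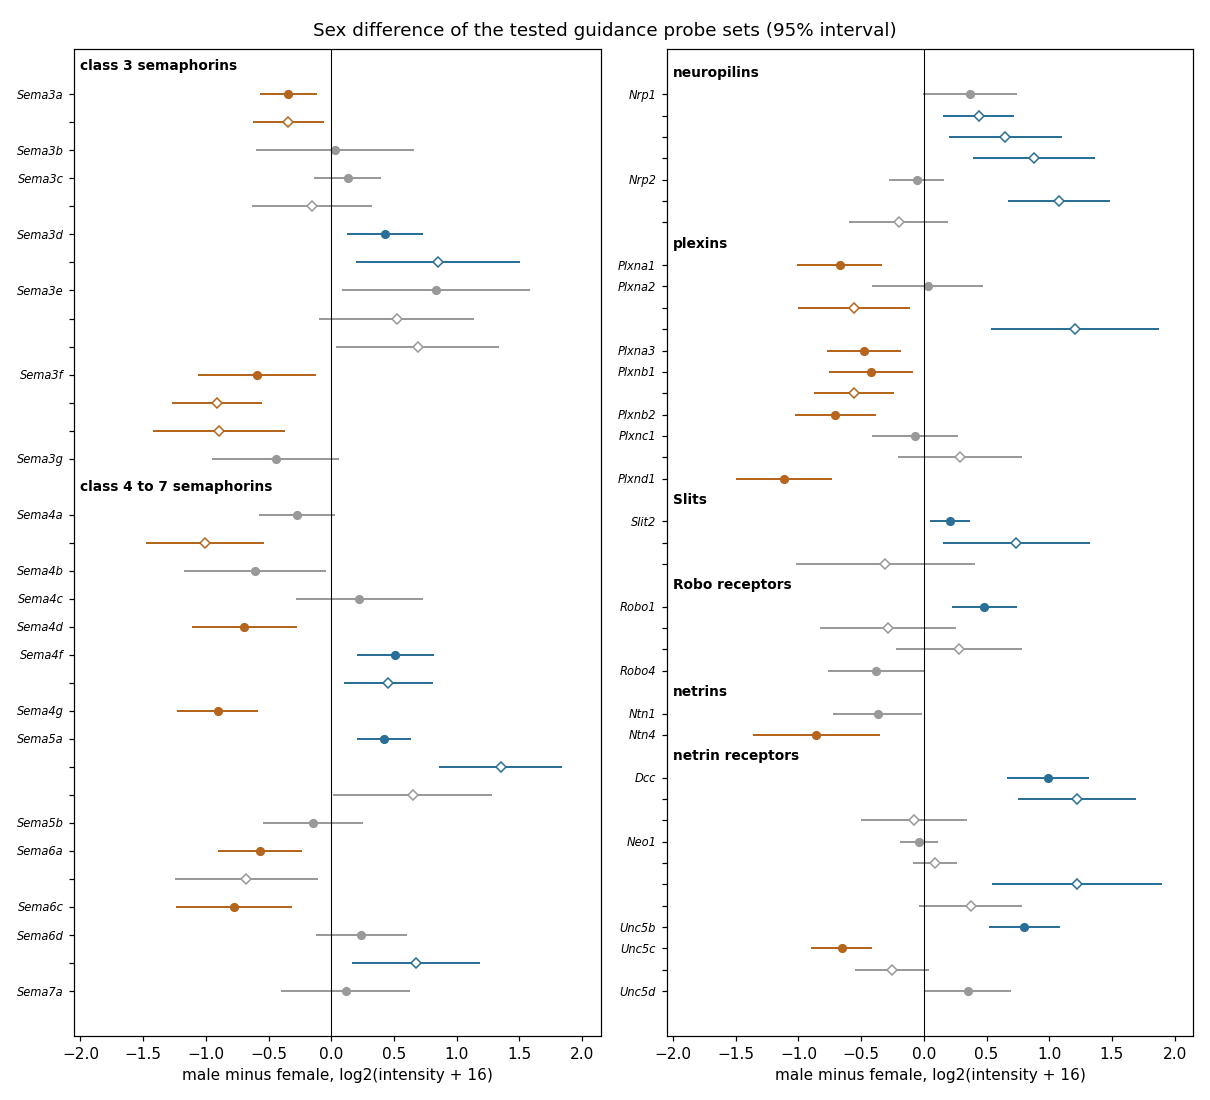
Male minus female difference, in log2 units of intensity + 16 with its 95% interval, for the 70 tested probe sets grouped by role. Filled circles are the brightest tested probe set of a gene and open diamonds its others; blue marks probe sets called higher in males, brown higher in females and grey those that did not pass. The called plexin genes lie left of 0 on their brightest probe set, and the neuropilin calls lie right of 0.

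Among the netrin receptors, Dcc and Unc5b were higher in males and Unc5c was higher in females. The promoters of this oppositely moving receptor pair, and those of Plxnd1 and Sema5a, the first with the largest plexin difference on a brightest probe set and the second with the largest difference on a tested semaphorin probe set, are shown as the reference sequence around their start sites. Each is RefSeq sequence of build GRCm38.p6, from 250 bases before to 50 bases after the start, written 5′ to 3′ on the gene's strand. Capitals mark matches on either strand to AGAACA, the half-site of the androgen receptor element, and to GGGCGG, the GC box bound by Sp1; overlapping matches merge.

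Unc5b, chr10:60831532-60831831, minus strand: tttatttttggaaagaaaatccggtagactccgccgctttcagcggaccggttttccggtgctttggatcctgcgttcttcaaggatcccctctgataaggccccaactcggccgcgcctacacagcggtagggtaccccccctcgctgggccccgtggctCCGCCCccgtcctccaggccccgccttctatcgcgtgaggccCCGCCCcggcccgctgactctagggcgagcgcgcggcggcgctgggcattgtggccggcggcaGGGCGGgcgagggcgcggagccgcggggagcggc

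Unc5c, chr3:141465314-141465613, plus strand: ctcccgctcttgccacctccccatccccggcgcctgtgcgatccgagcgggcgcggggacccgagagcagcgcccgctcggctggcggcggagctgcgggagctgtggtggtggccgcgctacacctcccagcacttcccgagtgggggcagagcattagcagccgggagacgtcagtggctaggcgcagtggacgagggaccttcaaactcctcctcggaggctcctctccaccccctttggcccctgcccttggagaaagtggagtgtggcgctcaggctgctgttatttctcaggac

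Plxnd1, chr6:115994956-115995255, minus strand: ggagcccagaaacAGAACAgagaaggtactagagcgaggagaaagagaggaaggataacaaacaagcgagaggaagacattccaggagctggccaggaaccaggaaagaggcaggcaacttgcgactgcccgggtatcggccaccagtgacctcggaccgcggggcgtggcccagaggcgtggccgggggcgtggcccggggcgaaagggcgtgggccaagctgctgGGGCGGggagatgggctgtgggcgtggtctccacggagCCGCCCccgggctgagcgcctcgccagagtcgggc

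Sema5a, chr15:32244563-32244862, plus strand: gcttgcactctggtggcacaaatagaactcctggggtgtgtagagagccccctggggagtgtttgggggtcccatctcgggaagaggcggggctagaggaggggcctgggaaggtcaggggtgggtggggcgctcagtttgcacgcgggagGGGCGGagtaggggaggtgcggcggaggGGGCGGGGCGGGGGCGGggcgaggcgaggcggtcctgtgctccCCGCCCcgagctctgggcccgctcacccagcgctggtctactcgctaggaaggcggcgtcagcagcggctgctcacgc

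The Unc5b window held 3 GC boxes and the Unc5c window none, and neither held the AGAACA half-site. The Plxnd1 window held 1 half-site and 2 GC boxes, and the Sema5a window 5 GC boxes. Of all 32851 promoters of this length, 18.97% held the half-site and 35.66% the GC box. Promoters were listed for 36 of the 45 genes, of which 5 held the half-site and 27 the GC box in at least 1 window. Some genes had several windows and so more chances of a match, so these gene counts are not comparable with the shares per promoter. The windows of these genes were rich in CpG, with a median of 18 CpG dinucleotides over their 49 promoters beside 7 over all promoters. Averaged over the windows of a gene, the median was 19 for the 6 tested genes higher in males, 22 for the 10 higher in females and 24.5 for the 15 that did not pass, with ranges of 7 to 36, 2 to 36 and 2 to 54. These letters describe the windows and say nothing of binding in the tubercle.

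Dcc, the receptor through which netrin attracts axons, read 2259, 2545, 1842 and 2811 on the female arrays and 4121, 4227, 5472 and 4949.9 on the male arrays. Every male array was above every female array, and the difference was 0.99 ± 0.15 (limma adjusted p = 0.00041). A second Dcc probe set read 690.1, 934, 659 and 848 on the female arrays and 2767, 1865, 1595 and 1349 on the male arrays, again without overlap, and differed by 1.22 ± 0.21 (limma adjusted p = 0.00101). The dimmest read 379, 511, 521 and 404 on the female arrays and 428, 426, 509.7 and 350.4 on the male arrays, differed by -0.08 ± 0.19 and did not pass (95% interval -0.49 to 0.34), so that 2 of the 3 Dcc probe sets were higher in males. Both Dcc calls held without each array in turn.

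Unc5b, a netrin receptor known from the tips of growing vessels, was higher on each male array. It read 3982, 4685, 4265 and 4602 on the female arrays and 9406, 6562, 6616 and 8316 on the male arrays, a difference of 0.80 ± 0.13 (limma adjusted p = 0.000556). Unc5c, the related repulsive receptor of migrating neurons and axons, went the other way, with 15221, 14500.1, 12322 and 13990 on the female arrays and 8523, 8773, 7675 and 10777 on the male arrays. Its difference was -0.65 ± 0.11 (limma adjusted p = 0.000726), again with no overlap. Within an array, the log2 ratio of Unc5b to Unc5c ran from -1.93 to -1.53 on the female arrays and from -0.42 to 0.14 on the male arrays, a shift of 1.46. This ratio is free of the scaling of the array, and its level is not a ratio of transcripts. It restates the 2 differences above, whose opposite signs without overlap already fix its separation, and is no further support for them. A dimmer Unc5c probe set differed by -0.26 ± 0.13 and did not pass (95% interval -0.54 to 0.03). The calls of Unc5b and Unc5c also held without each array.

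Unc5d, a further member of the receptor family, read 2100, 1986, 2535 and 2547 on the female arrays and 2910, 2200.1, 3502 and 3176 on the male arrays. Its ranges overlapped, and the difference of 0.35 ± 0.16 missed the threshold (limma adjusted p = 0.0919), which it met without male replicate 2 (0.48, limma adjusted p = 0.0223). Unc5a was dim and not tested, at 19.5, 23.2, 18.7 and 23 on the female arrays and 29.7, 24, 53.8 and 22.7 on the male arrays. Neo1 encodes neogenin, a receptor of netrins and of repulsive guidance molecules. Its brightest probe set read 25765, 25768, 27787 and 30555 on the female arrays and 28004, 25732, 26535 and 26438 on the male arrays, with overlapping ranges and a difference of -0.04 ± 0.07 (95% interval -0.19 to 0.11), and the next brightest differed by 0.09 ± 0.08, also without passing. A much dimmer Neo1 probe set read 314, 789, 714 and 1181 on the female arrays and 1368, 1603, 1957 and 1531 on the male arrays and was called higher in males, with no overlap, at 1.22 ± 0.31 (limma adjusted p = 0.00817). Without female replicate 1 this difference was 0.86. The Neo1 probe sets thus gave different answers, and the mean over the 4 tested ones was 0.41 (limma adjusted p = 0.0126).

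Of the 2 netrins tested, 1 passed, and it was lower in males. Ntn4, a laminin-like netrin of basement membranes, read 1456, 1135, 1509 and 679 on the female arrays and 698, 571, 598 and 632 on the male arrays. The 4 male arrays were close together and the lowest female array fell within their range, and the difference was -0.86 ± 0.23 (limma adjusted p = 0.0109). Ntn1, the best known attractant of the family, read 744, 668, 675 and 658 on the female arrays and 521, 583, 579 and 442 on the male arrays. Each male array was below each female array, but the difference of -0.37 ± 0.16 missed the threshold (limma adjusted p = 0.0843), which it met with quantile normalization (-0.43, limma adjusted p = 0.0477).

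**Figure D2:**
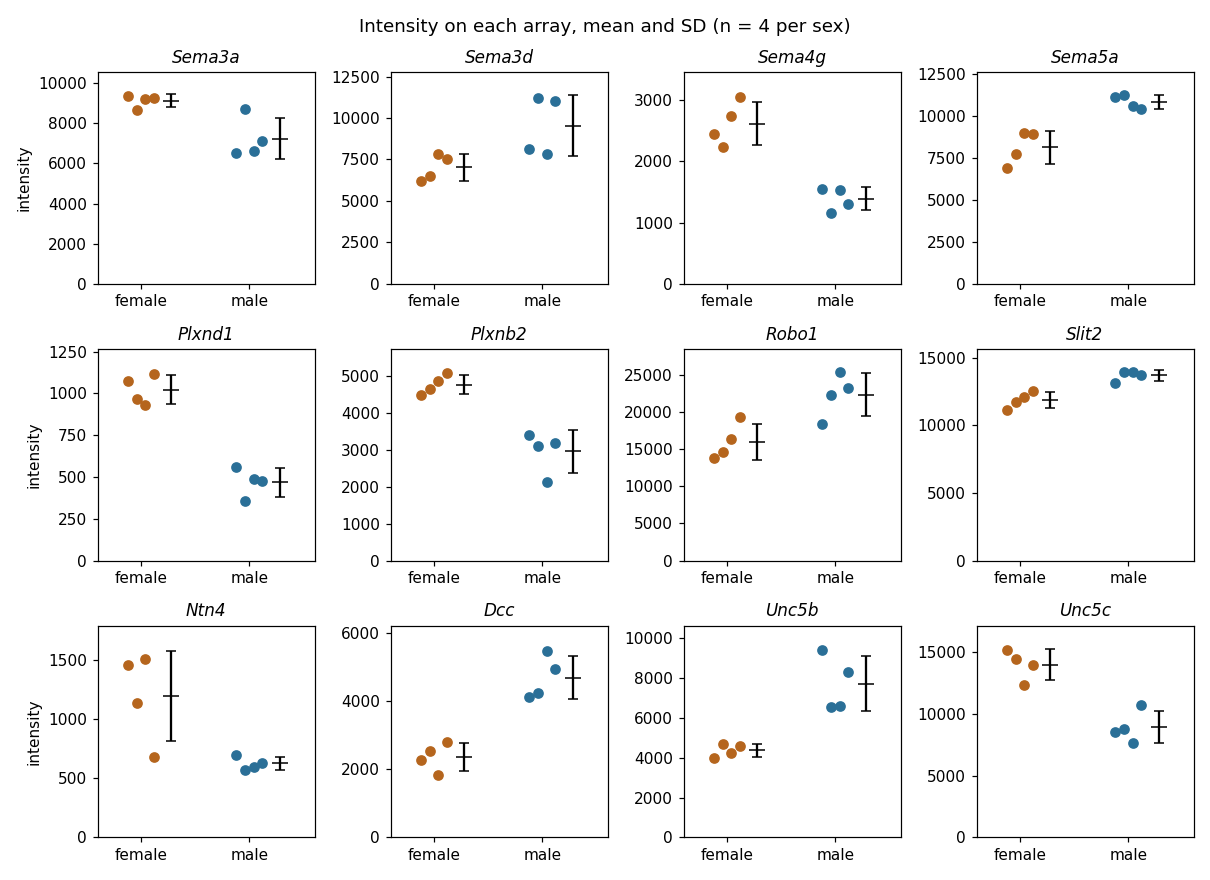
Intensity of the brightest tested probe set of 12 guidance genes on each array, with the female arrays in brown, the male arrays in blue, and the mean and SD (n = 4 per sex) beside them; every axis starts at 0. Dcc, Unc5b, Sema5a and Slit2 are higher on every male array, Unc5c, Plxnd1, Plxnb2 and Sema4g are lower on every male array, and the ranges of Sema3a, Sema3d, Robo1 and Ntn4 overlap.

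Plexins, the signalling receptors of semaphorins, were lower in males on most of their probe sets. Of 7 tested plexin genes, 5 were higher in females (71.4%, beside 28.2% of all genes), 0 were higher in males by limma on the brightest probe set (0 at an unadjusted p under 0.05), and 2 did not pass. Of 11 tested plexin probe sets, 7 were higher in females (63.6%, beside 21.9% of all tested) and 1 in males. With the 18S covariate none of these passed.

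Plxnd1, a plexin of endothelial cells that binds Sema3e, had the largest plexin difference on a brightest probe set. It read 1076, 969, 933 and 1114 on the female arrays and 559, 353, 487 and 473 on the male arrays, so that the highest male array lay well below the lowest female array, and it differed by -1.12 ± 0.17 (limma adjusted p = 0.00052). Plxnb2, a receptor of class 4 semaphorins, read 4484, 4654, 4863 and 5075 on the female arrays and 3414, 3119.8, 2122 and 3195 on the male arrays, also without overlap. Its difference was -0.71 ± 0.14 (limma adjusted p = 0.00252). Plxna1, a partner of the neuropilins, read 1394, 1233, 1050 and 1313 on the female arrays and 797, 665, 877 and 771 on the male arrays, and differed by -0.67 ± 0.15 (limma adjusted p = 0.00464). These 3 calls held without each array.

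Plxna3 is X-linked and pairs with neuropilins in the response to class 3 semaphorins. It read 1561, 1544, 1616 and 1372 on the female arrays and 1110.1, 1128, 956 and 1162 on the male arrays, a smaller difference of -0.48 ± 0.13 (limma adjusted p = 0.0127) with no overlap. A second Plxna3 probe set, below the filter, read 103, 100.1, 108 and 153 on the female arrays and 28.9, 38, 68.2 and 14.4 on the male arrays and was also lower in males when no filter was set (limma adjusted p = 0.0173, in a fit in which 9.95% of all probe sets were higher in females).

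Plxnb1, the receptor of Sema4d, was lower in males on both of its probe sets. The brighter read 5099, 6103, 6103 and 5931 on the female arrays and 6063, 4089, 3497 and 4012 on the male arrays, where male replicate 1 lay among the females, and differed by -0.42 ± 0.15 (limma adjusted p = 0.0421). That call ended without any 1 of 6 arrays, female replicates 2, 3 and 4 and male replicates 2, 3 and 4 (limma adjusted p up to 0.122, without male replicate 3). The second read 943, 1036, 1066 and 1168 on the female arrays and 673, 668, 757 and 740.2 on the male arrays without overlap, differed by -0.56 ± 0.14 (limma adjusted p = 0.00858) and held without each array.

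Plxna2, another neuropilin partner, had calls in both directions among its tested probe sets. Its brightest probe set read 1307 ± 186 in females and 1367 ± 386 in males and did not pass (0.03 ± 0.20, 95% interval -0.40 to 0.47). The next, with 853, 675, 662 and 547 on the female arrays and 575, 370.3, 382 and 522 on the male arrays, was called lower in males (-0.56 ± 0.20, limma adjusted p = 0.0447), a call that ended without any 1 of 5 arrays, female replicates 1, 2 and 3 and male replicates 2 and 3 (limma adjusted p up to 0.131, without female replicate 1). The dimmest tested one, with 122, 274, 156 and 104 on the female arrays and 566, 297, 389 and 298 on the male arrays, was called higher in males without overlap (1.20 ± 0.30, limma adjusted p = 0.0082). Neither call held without male replicates 1 and 3 (limma adjusted p = 0.063 and 0.0743). No direction can be given for this gene. Plxnc1, the receptor of Sema7a, read 2594 ± 228 in females and 2506 ± 552 in males and did not pass (-0.07 ± 0.15, 95% interval -0.40 to 0.26). Plxna4 and Plxnb3 had no probe set above the filter.

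Neuropilins, the binding receptors of class 3 semaphorins, were called only in the male direction, on 4 of 7 tested probe sets (57.1%, beside 18.7% of all tested), with 0 in the female direction by limma (0 at an unadjusted p under 0.05). Neither gene passed on its brightest probe set, so all 4 calls were on dimmer ones, most of them on the single gene Nrp1. Among all genes with more than 1 tested probe set, 24.6% of the dimmer ones were higher in males, beside 18.4% of the brightest. The brightest Nrp1 probe set read 4505, 7531, 7561 and 7143 on the female arrays and 10633, 8566, 7688 and 7272 on the male arrays, with female replicate 1 far below the other females, and differed by 0.37 ± 0.17 (limma adjusted p = 0.0998). The second, 5798, 6922, 6032 and 5493 on the female arrays and 6395, 9510, 8100.2 and 9099 on the male arrays, differed by 0.44 ± 0.13 (limma adjusted p = 0.0166), with overlapping ranges. The third differed by 0.65 ± 0.20 (limma adjusted p = 0.0238). The fourth read 444, 796, 878 and 490 on the female arrays and 1162, 1004, 1327 and 1182 on the male arrays without overlap and differed by 0.88 ± 0.22 (limma adjusted p = 0.00792). All 4 Nrp1 differences thus had one sign, and their mean was 0.58 (limma adjusted p = 0.00222). The second call was lost without male replicate 2 (limma adjusted p = 0.053), and the third without any 1 of female replicates 3 and 4 and male replicates 1 and 3 (limma adjusted p up to 0.0682) and without both male replicates (0.33, limma adjusted p = 0.21). The fourth held without each array, and missed the threshold without male replicates 1 and 3 (limma adjusted p = 0.0516).

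Nrp2, the neuropilin of Sema3f and of lymphatic vessels, split between its probe sets. The brightest read 5833, 7291, 5812 and 6738 on the female arrays and 6262, 6252, 5946 and 6122 on the male arrays, with overlapping ranges and a difference of -0.06 ± 0.10 (95% interval -0.27 to 0.16). A dimmer one read 910.4, 1777, 1109 and 1444 on the female arrays and 2614, 2803, 2602 and 2757 on the male arrays and was called higher in males without overlap (1.08 ± 0.18, limma adjusted p = 0.000893), while the third read 1098, 1227, 1015 and 1283 on the female arrays and 995, 1082, 731 and 1268 on the male arrays, differed by -0.20 ± 0.18 and did not pass.

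Class 3 semaphorins are the secreted ligands of neuropilins. Among 7 tested genes, 1 was higher in males (14.3%) and 2 in females (28.6%), shares close to the 14% and 28.2% of all genes. Sema3a, the prototype repellent, read 9380, 8679, 9216 and 9262 on the female arrays and 6535, 8730.5, 6602 and 7107 on the male arrays. Only male replicate 2 reached the females, and the difference was -0.34 ± 0.10 (limma adjusted p = 0.0174). Its second probe set gave the same size, -0.34 ± 0.13 (limma adjusted p = 0.0488). The first call ended without male replicate 3 (0.0504), and without male replicates 1 and 3 (-0.21, limma adjusted p = 0.129). The second ended without any 1 of 6 arrays, female replicates 1, 2 and 3 and male replicates 1, 2 and 4 (limma adjusted p up to 0.111), and without male replicates 1 and 3 (limma adjusted p = 0.0581). Another, dim probe set below the filter read 4.28, 61.5, 11.3 and 72.7 on the female arrays and 247, 145, 146 and 126 on the male arrays, in the opposite direction (limma adjusted p = 0.0168 with no filter, where 9.5% of all probe sets were higher in males). That call ended without female replicate 3 (limma adjusted p = 0.0526) and without male replicates 1 and 3 (0.105).

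Sema3f, a repellent that acts through Nrp2, was lower in males on all 3 of its probe sets. The brightest, whose suffix marks probes prone to cross-hybridization, read 1154, 841, 1401 and 1068 on the female arrays and 829.8, 641, 961 and 529.9 on the male arrays with overlapping ranges and differed by -0.59 ± 0.21 (limma adjusted p = 0.0411). Without male replicates 1 and 3 the difference was -0.90. The call ended without any 1 of 5 arrays, female replicates 1, 3 and 4 and male replicates 2 and 4 (limma adjusted p up to 0.126, without female replicate 3). The second read 671, 743, 659 and 742 on the female arrays and 420.3, 331, 367 and 352 on the male arrays, and the sexes stood clearly apart. It differed by -0.91 ± 0.16 (limma adjusted p = 0.00111). The third read 244, 334, 411 and 313 on the female arrays and 218, 156, 123 and 176 on the male arrays and differed by -0.89 ± 0.24 (limma adjusted p = 0.0104), and both dimmer calls held without each array.

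Sema3d, a ligand with roles in axon and vascular patterning, was higher in males. It read 6213, 6477, 7839 and 7533 on the female arrays and 8102, 11223, 7810 and 11009.6 on the male arrays, where male replicates 2 and 4 were well above the others, and differed by 0.43 ± 0.13 (limma adjusted p = 0.0235). A second probe set differed by 0.85 ± 0.30 (limma adjusted p = 0.037). The first call ended without any 1 of female replicates 1 and 2 and male replicates 2 and 4 (limma adjusted p up to 0.0723), and the second without any 1 of 6 arrays, all 4 female arrays and male replicates 1 and 3 (limma adjusted p up to 0.0925). Without male replicate 3 the second differed by 0.54. Without male replicates 1 and 3 together, the first differed by 0.67 (limma adjusted p = 0.00178) and the second by 0.35 (limma adjusted p = 0.258).

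Sema3e, the ligand that binds Plxnd1 without a neuropilin, varied widely among replicates. It read 1209, 747, 1834 and 1888 on the female arrays and 1267, 3949, 2299 and 2811 on the male arrays, with overlapping ranges, and its difference of 0.83 ± 0.34 did not pass (limma adjusted p = 0.0674). Its other 2 tested probe sets differed by 0.52 ± 0.28 and 0.69 ± 0.30 and did not pass either. The brightest passed without male replicate 1 (1.14, limma adjusted p = 0.0111), without male replicates 1 and 3 (1.31, 0.0128), with array weights (1.06, 0.0155) and at the upper-quartile filter (0.0485), as did the mean of its tested probe sets (0.68, 0.0306). On the same arrays the call of Plxnd1 pointed the other way. Sema3c, a ligand of mesenchyme and epithelium, read 10390 ± 827 in females and 11470 ± 1980 in males (0.13 ± 0.12, 95% interval -0.13 to 0.39). Sema3g, an endothelial ligand, differed by -0.44 ± 0.23 and Sema3b by 0.03 ± 0.29, and neither passed. With quantile normalization Sema3g did (-0.64, limma adjusted p = 0.0343). Without male replicate 1 Sema3c did (0.25, limma adjusted p = 0.0395).

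The other semaphorins are bound to the membrane. Among 12 tested genes of classes 4 to 7, 2 were higher in males (16.7%, beside 14% of all genes) and 4 in females (33.3%, beside 28.2%), which is again near the background. Sema4g, a class 4 ligand of plexin B receptors, had the largest difference among semaphorin genes on the brightest probe set. It read 2446, 2233, 2735 and 3051 on the female arrays and 1549, 1161, 1535 and 1308 on the male arrays, with every male array well below every female array, and differed by -0.91 ± 0.15 (limma adjusted p = 0.000628). Sema4d, the ligand of Plxnb1, read 833, 628, 660.5 and 782 on the female arrays and 452, 338, 447 and 547 on the male arrays and differed by -0.69 ± 0.19 (limma adjusted p = 0.0115). Its ranges did not overlap, and both calls held without each array. The second probe set of Sema4a, a semaphorin also known from immune cells, read 519, 532, 584 and 483 on the female arrays and 266, 268, 173 and 341 on the male arrays and was lower in males (-1.01 ± 0.21, limma adjusted p = 0.0032). Its brightest, which carries the suffix for cross-hybridizing probes, had a difference of -0.27 ± 0.14 that missed the threshold (limma adjusted p = 0.128), and the mean of both passed (-0.64, limma adjusted p = 0.0031).

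Sema4f went the other way. Its brightest probe set, again with the cross-hybridization suffix, read 3908, 3749.7, 3877 and 5389.8 on the female arrays and 5917, 6112, 5022 and 6991 on the male arrays, where female replicate 4 reached into the male range, and differed by 0.51 ± 0.14 (limma adjusted p = 0.0113). Its other probe set, without that suffix, read 1808, 1686, 1803 and 1819 on the female arrays and 2005, 2413, 2156 and 3404 on the male arrays without overlap and differed by 0.45 ± 0.16 (limma adjusted p = 0.0383). The second call ended without any 1 of 6 arrays, all 4 female arrays and male replicates 2 and 4. Without male replicate 4 the difference was 0.29 (limma adjusted p = 0.103), and without male replicates 1 and 3 it was 0.68. The first held without each array. Sema4b (-0.61 ± 0.26) and Sema4c (0.22 ± 0.23) did not pass. Sema4b passed with quantile normalization (-0.74, limma adjusted p = 0.0437) and without male replicate 4 (-0.81, 0.0209).

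Sema5a, a transmembrane ligand with thrombospondin repeats that can attract or repel, was higher in males. It read 6919.7, 7744, 8994 and 8893 on the female arrays and 11155, 11241, 10592 and 10406 on the male arrays, without overlap, and differed by 0.42 ± 0.10 (limma adjusted p = 0.00467). A second probe set read 743, 1091, 749 and 907 on the female arrays and 3214, 1666, 2704 and 1681 on the male arrays and differed by 1.35 ± 0.22 (limma adjusted p = 0.00075), the largest difference among the tested guidance probe sets. Both held without each array. The dimmest tested one differed by 0.65 ± 0.29 and did not pass. Sema5b, its close relative, read 499 ± 36.4 in females and 455 ± 86.9 in males and did not pass (-0.14 ± 0.18, 95% interval -0.53 to 0.25).

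The class 6 semaphorins, transmembrane ligands of plexin A receptors, were mixed. Sema6a read 2102, 2157, 1910.2 and 1786 on the female arrays and 1021, 1465, 1394 and 1513 on the male arrays, lower on every male array, and differed by -0.57 ± 0.15 (limma adjusted p = 0.0105). Sema6c read 728, 852, 648 and 815 on the female arrays and 613, 447, 431 and 306 on the male arrays, also without overlap, and differed by -0.77 ± 0.21 (limma adjusted p = 0.0116). Both calls held without each array. Sema6d, a ligand of Plxna1, did not pass on its brightest probe set (0.24 ± 0.16). A dimmer one, with 153, 173, 276 and 229.8 on the female arrays and 315, 342, 406 and 279.5 on the male arrays, passed in the male direction (0.67 ± 0.23, limma adjusted p = 0.0346), a call that ended without any 1 of female replicates 1 and 2 and male replicates 2 and 3 (limma adjusted p up to 0.0983) and without male replicates 1 and 3 (limma adjusted p = 0.142). The mean of both Sema6d probe sets also passed (0.46, limma adjusted p = 0.0171). Sema7a, the lipid-anchored ligand of Plxnc1 and integrins, read 210.3 ± 58.1 in females and 224 ± 27.1 in males and did not pass (0.11 ± 0.23, 95% interval -0.39 to 0.62). Sema6b was too dim to be tested, at 78.4 ± 63.4 in females and 60 ± 28.5 in males.

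Of 3 tested Slit and Robo genes, 2 were higher in males, where 14% of all genes were, and 1 did not pass. Robo1, the main Slit receptor, read 13820, 14558, 16296 and 19283 on the female arrays and 18421, 22193, 25298 and 23256 on the male arrays. The brightest female array exceeded the dimmest male array, and the difference was 0.48 ± 0.12 (limma adjusted p = 0.00613) and held without each array. Of its other 2 tested probe sets, one read 1109, 514, 722 and 1170.2 on the female arrays and 695, 549, 712 and 787 on the male arrays and differed by -0.29 ± 0.25, and the other differed by 0.28 ± 0.23. Neither passed, and both had overlapping ranges. With the mean of its 3 tested probe sets Robo1 differed by 0.16 and was not called (limma adjusted p = 0.39). Robo4, a Robo family receptor of endothelium, read 405, 387, 373 and 439 on the female arrays and 331, 287, 303 and 295 on the male arrays. It was lower on every male array, but its difference of -0.38 ± 0.17 missed the threshold (limma adjusted p = 0.0923), which it met with quantile normalization (-0.53, limma adjusted p = 0.0215).

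Slit2, a secreted Robo ligand, read 11119.8, 11716, 12085 and 12537 on the female arrays and 13129, 13989, 13982 and 13705 on the male arrays. The arrays within each sex were so close that the sexes did not overlap although the difference was small, 0.21 ± 0.07 (limma adjusted p = 0.0328). A second probe set differed by 0.74 ± 0.27 (limma adjusted p = 0.0426) with overlapping ranges, and the dimmest, at 500.1, 513, 670 and 611 on the female arrays and 509, 602, 195 and 717 on the male arrays, by -0.31 ± 0.33, which did not pass. The first call ended without any 1 of 6 arrays, female replicates 1, 2 and 3 and male replicates 2, 3 and 4 (limma adjusted p up to 0.0969). The second ended without any 1 of female replicates 1 and 3 and male replicates 2, 3 and 4 (limma adjusted p up to 0.124). The mean of the 3 probe sets differed by 0.21 and was not called (limma adjusted p = 0.313).

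Slit3 and Robo2 lay below the filter and so were not part of these counts. Slit3, a Slit ligand, read 337, 217, 229 and 169 on the female arrays and 19.7, 63.4, 13 and 16.7 on the male arrays, lower on every male array, and it was called in the fit with no filter (limma adjusted p = 0.00124). Robo2, a receptor of Slits, read 54.7, 172, 93.2 and 96.7 on the female arrays and 274, 345, 235 and 271 on the male arrays, higher on every male array, and differed there by 1.38 ± 0.32 (limma adjusted p = 0.0127). Of the 37 guidance probe sets below the filter, that fit called 4 higher in males and 2 higher in females, beside 9.5% and 9.95% of all probe sets. These shares include the bright probe sets above the filter. They are therefore no background for dim probe sets alone, for which no share was computed. The 4 were on Robo2, Sema3a, Neo1 (limma adjusted p = 0.0166) and Sema3e (0.0362), and the 2 on Slit3 and Plxna3. At such low intensities the pseudocount sets the size of a difference: with 1 and with 64 in place of 16, it was 2.78 and 1.22 for Sema3a, 3.06 and 1.59 for Neo1, 1.79 and 0.70 for Sema3e, -3.28 and -1.72 for Slit3, and -1.79 and -0.85 for Plxna3. The Sema3e call ended without any 1 of 7 arrays, all but male replicate 4, with quantile normalization (limma adjusted p = 0.0588), with no variance trend (0.051) and without male replicates 1 and 3 (0.174). The Neo1 call ended without female replicate 1 (limma adjusted p = 0.051), without male replicate 3 (0.0521) and without male replicates 1 and 3 (0.144). Other dim probe sets had the sign opposite to the call on their gene without passing, on Plxna1 (0.13 ± 0.55), Unc5b (-0.19 ± 0.27), Sema4d (0.11 ± 0.44 and 0.07 ± 0.18) and Sema6c (0.56 ± 0.59 and 0.47 ± 0.46). Mean intensities ran from 3.15 to 193 over the 37. Slit1, a ligand best known from the nervous system, had 2 probe sets, both below the filter, the brighter at 61.3, 79, 186 and 128 on the female arrays and 51.6, 215, 177 and 167 on the male arrays.

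Probe sets of one gene often differed in size and at times in sign. Of 32 dimmer tested probe sets, 22 had the sign of the brightest one of their gene and 10 the opposite sign. Calls on 2 or more probe sets were made for 10 genes, of which 6 had all of them in the male direction, 3 all in the female direction and 1, Plxna2, in both. Over the whole array the last group was 24.5% of 1512 genes. The dimmer guidance probe sets had a median difference of 0.33 beside 0.08 for the brightest ones of the same 20 genes. The whole array showed the same ordering, with 0.12 beside -0.07 over 4934 genes. The within-sex SD was similar to that of the array, with a median of 0.26 log2 units over the tested guidance probe sets and 0.23 over all.

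**Figure D3:**
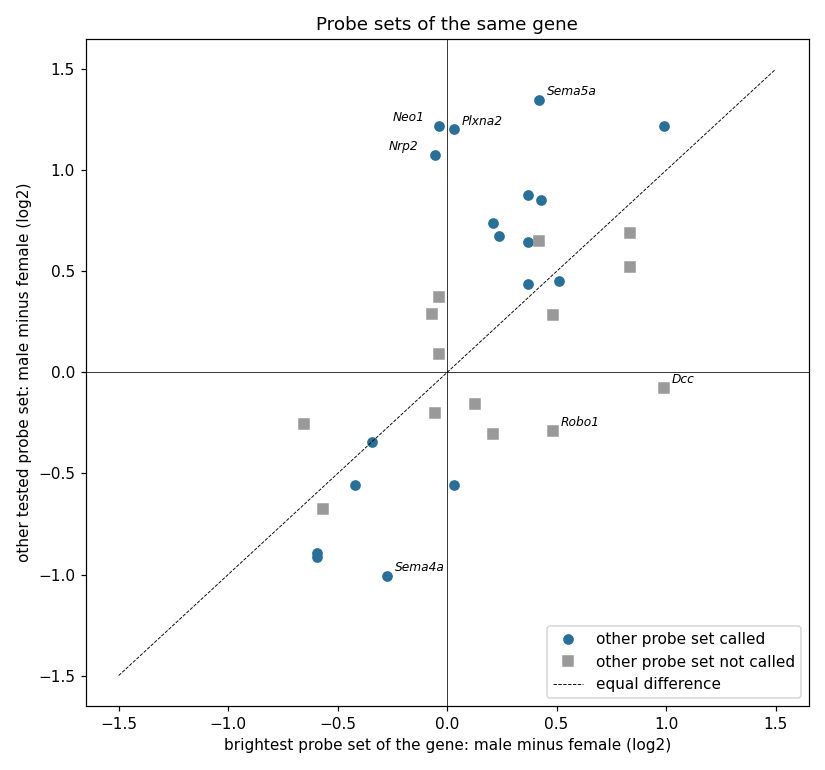
Male minus female difference (log2) of the brightest tested probe set of a gene, across, against that of each of its other tested probe sets, up, for the 20 guidance genes with more than 1; blue circles are other probe sets that were called, grey squares those that were not, and the dashed line marks equal differences. Neo1, Plxna2 and Nrp2 have brightest probe sets near 0 and a dimmer one above 1.

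Partner genes of these pathways, taken from lists that were chosen with earlier results of these data known, were examined next. Among 27 tested semaphorin effectors and coreceptors, 13 were called (48.1%, beside 42.2% of all genes). Of the 27, 4 were higher in males (14.8%, beside 14% of all genes) and 9 in females (33.3%, beside 28.2%), which is near the background. Kdr, a vascular endothelial growth factor receptor that is also an endothelial marker (1.16 ± 0.19), and the integrin Itgb1 (1.06 ± 0.10) were higher in males. The kinase gene Cdk5 (-1.24 ± 0.22) and Mical3, an actin-oxidizing plexin effector (-0.90 ± 0.17), were lower. The median of this list was -0.21, beside -0.12 over all genes.

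Among 17 tested Slit and Robo partners, 11 were called (64.7%, beside 42.2% of all genes), with a median of -0.21. Of the 17, 4 were higher in males (23.5%, beside 14% of all genes) and 7 in females (41.2%, beside 28.2%). The kinase gene Abl1 (-1.11 ± 0.15) and Cap1, an actin regulator (-0.84 ± 0.14), were lower in males. Usp33, a deubiquitinase that binds Robo1 (0.72 ± 0.11), and the exchange factor Sos2 (0.70 ± 0.11) were higher. Among 14 tested netrin receptor ligands and effectors, 7 were called (50%, beside 42.2% of all genes), with a median of 0.07. Of the 14, 3 were higher in males (21.4%, beside 14% of all genes) and 4 in females (28.6%, beside 28.2%). The netrin-related Ntng1 (0.66 ± 0.11) was higher in males. Draxin, a secreted ligand of Dcc (-0.61 ± 0.18), was lower, as were Tiam1, an activator of Rac (-0.52 ± 0.11), and Maged1, which binds UNC5 receptors (-0.45 ± 0.10).

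Marker genes of several cell types differed between the sexes. The share called was 85.7% for neurons, 77.8% for skeletal muscle, 75% for erythroid cells, 71.4% for blood endothelium, 62.5% for epithelium, 50% for lymphatic endothelium, 40% for macrophages and 25% for Schwann cells, beside 42.2% of all genes. For the 6 tested tubercle markers it was 66.7%. Of these, 4 were higher in females, where 28.2% of all genes were, and 0 in males in limma (0 at an unadjusted p under 0.05). The summed level of the 7 tubercle markers on the array ran from 121223 to 136637 on the female arrays and from 105777 to 109581 on the male arrays. Of 7 tested neuronal markers, 4 were higher in males and 2 in females. Higher in males were Stmn2 (1.43 ± 0.26), Dbh (0.61 ± 0.17), Nefm (0.49 ± 0.12) and Nefl (0.46 ± 0.14), and lower were Uchl1 (-1.16 ± 0.21) and Gap43 (-0.48 ± 0.17). The summed level of the 11 markers ran from 9805 to 11329 on the female arrays and from 12187 to 16439 on the male arrays. Such a sum mostly follows the brightest probe sets of its list, here Nefl, with means of 5455 in females and 7568 in males. Tubb3, Prph, Elavl3 and Th lay below the filter. Of 9 tested skeletal muscle markers, 7 were higher in males (77.8%) and 0 in females. The summed level of all 10 ran from 7056 to 17043 on the female arrays and from 19859 to 30647 on the male arrays. No muscle marker was lower in males at an unadjusted p under 0.05 in limma either. Of 7 tested blood endothelial markers, 3 were higher in males (42.9%) and 2 in females (28.6%), with sums of 9620 to 11153 and 10737 to 13077. Among them Kdr and Tek (0.93 ± 0.16) were higher, while Cdh5 (-0.57 ± 0.11) and Eng (-0.84 ± 0.19) were lower in males. Of 8 epithelial markers, 1 was higher in males (12.5%) and 4 in females (50%), with sums of 54422 to 64112 and 54242 to 60308. Of 4 tested Schwann cell markers 1 was higher in males (25%) and 0 in females in limma (1 at an unadjusted p under 0.05), with sums of 5927 to 7309 and 4433 to 6545. Lymphatic endothelial, macrophage and erythroid markers had 1 call higher in males each (25%, 20% and 25%), and 1, 1 and 2 calls higher in females (25%, 20% and 50%). No marker was listed at 0. The part of these cell types, and of the 18S level, in the guidance gene differences was not tested.

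The calls were compared under other fits. Of the 20 called genes, 15 kept the call without each array in turn, and the other 5 were Plxnb1, Sema3a, Sema3d, Sema3f and Slit2. Without male replicate 3, whose Xist level stood apart, 17 kept it, all but Plxnb1, Sema3a and Slit2. Without male replicates 1 and 3, 18 of the 20 kept it, and Sema3a and Slit2 did not. With no filter, Plxnb1 (limma adjusted p = 0.081), Sema3f (0.0768), Slit2 (0.0532) and Sema3d (0.0519) lost it, as they did with no variance trend (0.0771, 0.0526, 0.101 and 0.0564), and with quantile normalization Plxnb1 did (0.0647). With the 18S covariate, all 38 called probe sets kept their sign and none its call. The lowest adjusted p there was 0.0695, for Sema4g. On their brightest probe sets, the differences of Plxnd1 (-1.18), Sema6c (-1.17) and Sema3d (0.65) were larger in that fit than without the covariate, and those of Ntn4 (-0.50), Sema4d (-0.46) and Sema3a (-0.17) were smaller, with wider intervals. The differences of called dimmer probe sets that moved by over 1.5 times with the covariate were 0.59 for Sema5a, 0.48 for Nrp2, 0.76 for Dcc, 0.35 and -0.26 for Plxna2, 0.22 for Neo1, 0.24 for Slit2, 0.43 for Sema6d, 0.039 for Sema3d, 0.78 for Sema4f, -0.66 for Sema4a, and 0.25 and 0.38 for the third and the fourth Nrp1 probe set.

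**Figure D4:**
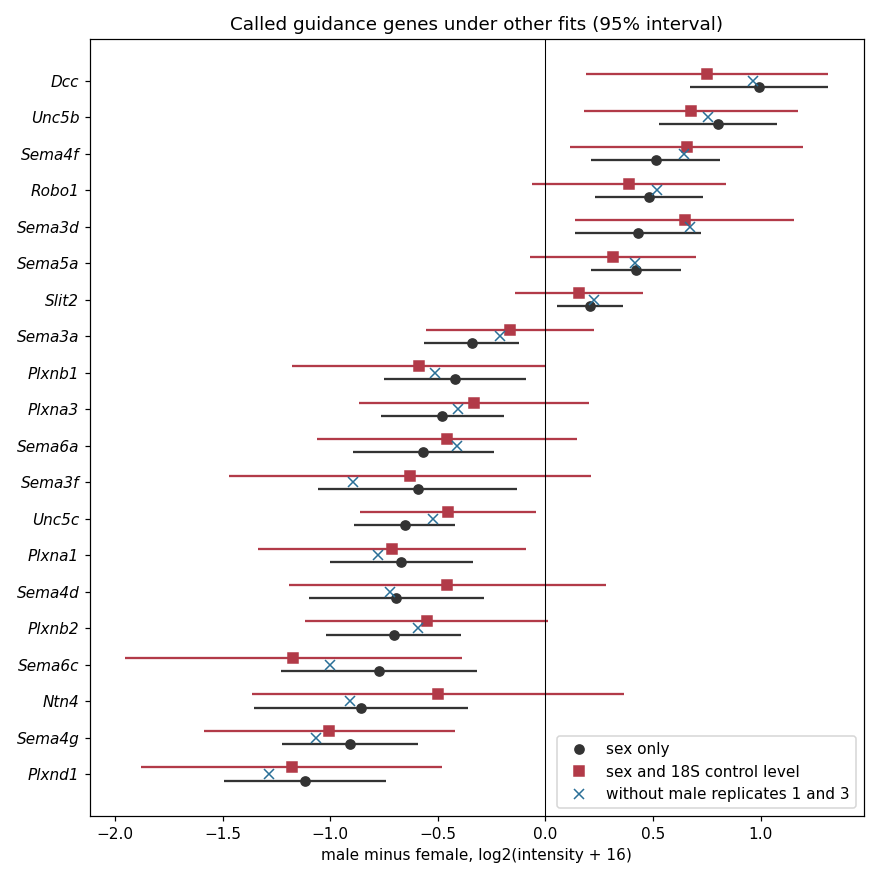
Male minus female difference (log2 units of intensity + 16) of the 20 called genes on their brightest tested probe set, with 95% intervals, for the fit with sex only (black circles), the fit with the 18S control level added (red squares), and the fit without male replicates 1 and 3 (blue crosses, no interval drawn). Every difference keeps its sign, and the intervals widen with the 18S level.

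**Figure D5:**
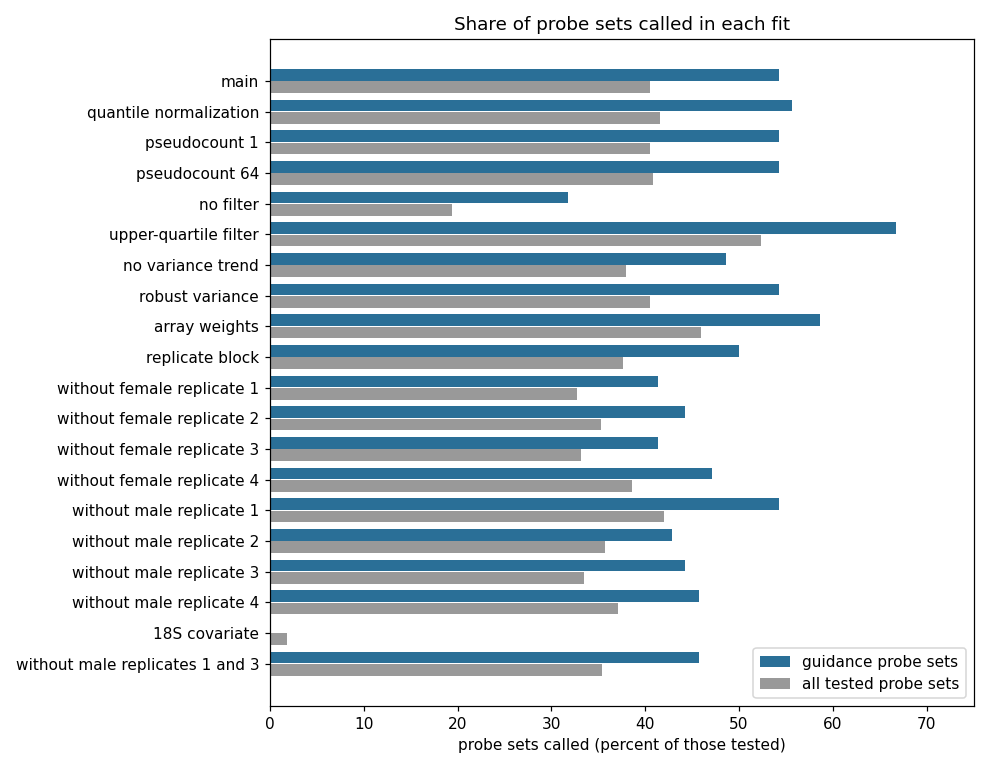
Percent of tested probe sets called at a limma adjusted p under 0.05 in each fit, for guidance probe sets (blue) and for all tested probe sets (grey), with the bars starting at 0. The guidance share is above that of the array in every fit but the one with the 18S covariate, where it is 0 beside 1.84%.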

How the data were processed

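Intensities on a linear scale were deposited for 45101 probe sets. Per the submitters' processing notes the authors used GCOS, software for Affymetrix arrays, of a version not given in the sources used here. Per the labels, RNA was amplified in 2 rounds. The 2%-trimmed mean of every column was 1500, so no further scaling was applied. Median intensity was still higher on every male array than on every female array. The sex in each title gave the groups. Probe sets were named through the platform annotation, and all 45 symbols were found in the RefSeq gene table.

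Values were transformed as log2(intensity + 16). The 64 control probe sets were left out, and the 22519 probe sets whose mean log2 value reached the median (7.77) were tested with limma (version 3.58.1, R version 4.3.3), sex as the only term and a mean-variance trend, with Benjamini-Hochberg adjustment over all of them. Probe sets below the filter are given from the same fit with no filter. A gene was read on its brightest tested probe set. The method was tested on simulated data. Guidance genes, partner and marker lists were chosen with earlier results of these data known. Values per array were given for called genes, for the Dcc, Unc5, Slit, Robo, Ntn1, Nrp and Neo1 genes and for tested probe sets that oppose a call on the same gene, and up to 4 called partners per list with the largest differences. No pair among the 28 pairs of arrays was identical. Alternatives were other normalization, pseudocounts, filters, variance models, weights, a replicate block and leaving out each array, and, chosen after seeing results, the 18S covariate and leaving out male replicates 1 and 3.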

Additional observations from a re-analysis of the deposited data

Results flagged for a closer look

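For 5 genes, 1 array stood far from the other 3 of its sex, among 90 groups examined, where chance flags about 1 in 20. Nrp1 read 4505 on female replicate 1, beside 7143 to 7561 on the other female arrays. Plxnb1 read 5099 on female replicate 1, beside 5931 to 6103. Sema4f read 5390 on female replicate 4, beside 3749.7 to 3908. Sema5b read 584 on male replicate 4, beside 404 to 423, and Sema3b read 417 on male replicate 1, beside 192 to 207.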

How the results depend on the processing

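In the other fits, the counts of called guidance probe sets and genes stayed within 1.5 times their values, except with the 18S covariate and at the upper-quartile filter, where 33 guidance probe sets were left to test. At that filter, 8 probe sets and 7 genes were higher in females. With the 18S covariate the counts were 0 probe sets and 0 genes in either direction. Without 1 array, 13 to 20 probe sets and 5 to 10 genes were higher in males, and 15 to 18 probe sets and 11 to 13 genes in females. The median difference ran from -0.04 to 0.22 over these fits, the highest at the upper-quartile filter. The replicate numbers did not pair the samples: deviations of same-numbered samples correlated at -0.13 to 0.04, and 1 of 8 samples correlated best with its own number. With the number as a replicate block, 19 probe sets were higher in males and 16 in females, and 34 of the 38 calls stayed; Plxnb1 (limma adjusted p = 0.073), Plxna2 (0.0534) and the second probe sets of Sema3a (0.0822) and Sema3d (0.0628) lost theirs.

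The differences that changed sign were of uncalled probe sets, and the cause was not tested. With quantile normalization they were Sema3b (-0.17) and Sema7a (-0.10), and with array weights Sema3b (-0.089). With the 18S covariate they were Sema4c (-0.44), Sema7a (-0.34), Nrp1 on its brightest probe set (-0.15), Plxnc1 (0.042), and dimmer probe sets of Sema5a (-0.26), Unc5c (0.092), Robo1 (0.27) and Slit2 (0.37). Without male replicates 1 and 3 they were Sema3b (-0.21), Sema4c (-0.047), Plxnc1 (0.055), and dimmer probe sets of Nrp2 (0.025) and Slit2 (0.20). With the mean of a gene's probe sets they were Neo1 (0.41, which passed), Nrp2 (0.27), Plxnc1 (0.11) and Sema3c (-0.013). Without 1 array, Sema3b ran from -0.22 to 0.21, Sema7a from -0.0033 to 0.26, Plxna2 from -0.10 to 0.18, Plxnc1 from -0.20 to 0.029, Neo1 from -0.069 to 0.013 and Nrp2 from -0.10 to 0.0074 on their brightest probe sets, and dimmer probe sets of Dcc from -0.16 to 0.012 and Slit2 from -0.52 to 0.083.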
